A study of Mus musculus with 6 samples.

Results

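The genes described here encode the nuclear subunits of oxidative phosphorylation, the 4 complexes of the mitochondrial respiratory chain (I to IV), ATP synthase (complex V) and cytochrome c. They were chosen by symbol among the protein-coding genes of the GENCODE M21 annotation (Ndufa, Ndufb, Ndufc, Ndufs and Ndufv genes, Sdha to Sdhd, Uqcr genes, Cyc1, Cycs, Cox4 to Cox8 genes and Atp5 genes), matched on the Ensembl identifier, with a mean of at least 5 CPM (read counts scaled to the size of the library). Of the 55487 genes in the files, 87 carried such a symbol and 80 met the level. Complex I had 35 members, complex II 4, complex III 9, complex IV 14 and complex V 17, with cytochrome c (Cycs) set apart as the carrier between complexes III and IV. Ndufa4, named as a complex I gene, was counted in complex IV, to which its product belongs.

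RNA was measured in LSK cells, the lineage-negative, c-KIT+ and SCA1+ marrow fraction in which blood stem cells and multipotent progenitors lie. One group of 3 libraries came from wild-type mice (WT) and the other 3 from Brm-/- mice (BrmKO), all on the strain background written C56Bl/6 in the labels. No treatment, Cre driver or transgene is named for either group, and the sources used here give neither the age of the mice nor the way the allele was made. The comparison asks how cells without BRM, a motor protein of SWI/SNF complexes that moves nucleosomes, differ from WT cells in their RNA.

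Complexes I and II take electrons from NADH and succinate and hand them to ubiquinone. Complex III passes them on to cytochrome c and complex IV to oxygen, while complexes I, III and IV pump the protons that drive ATP synthesis by complex V. Most subunits are encoded in the nucleus and imported, and the remainder are encoded by mitochondrial DNA. Blood stem cells at rest are known to draw much of their energy from glycolysis, and their descendants rely more on respiration as they divide and differentiate.

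The targeted gene was checked first. Smarca2, which encodes BRM, had 6284, 6932 and 4270 reads in WT replicates 1 to 3 and 805, 761 and 958 reads in BrmKO replicates 1 to 3. Its level fell from 179 ± 31.9 to 27.1 ± 0.685 CPM (SD, n = 3), or 15.1% of the WT mean (log2 fold change -2.72 ± 0.13 SE, edgeR quasi-likelihood adjusted p = 2.97e-05). CPM here are on TMM-scaled library sizes, and log2 fold changes are positive where BrmKO was higher. Libraries held 28.01 to 36.46 M reads in genes. The libraries numbered 3 stood apart in both genotypes. They had 8.41% (WT) and 9.29% (BrmKO) of reads outside annotated genes, against 5.79% to 6.61% in the other 4, and the second principal component, with 25.0% of the variance, separated them from the rest. Kit and Ly6a, the genes of the markers that define the LSK gate, had reads in every library, Ly6a far fewer than Kit. Kit averaged 939.6 CPM over the WT and 975.3 CPM over the BrmKO libraries. The progenitor genes Cd34 and Flt3 averaged 995 and 1046 CPM and 494 and 537 CPM. None of 8 LSK and progenitor markers passed the test. Ly6a, which encodes SCA1, averaged 24.7 and 30.5 CPM, and the stem cell gene Hlf had the smallest p of the list (log2 fold change 0.39 ± 0.14, edgeR adjusted p = 0.706).

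No nuclear subunit of any complex differed detectably between the genotypes. Of the 80 members, 0 passed the edgeR quasi-likelihood test at an adjusted p of 0.05, where 0.14% of all 15691 tested genes did (0.0829% higher and 0.0574% lower in BrmKO). DESeq2 and limma-voom also called 0 members. At an unadjusted p under 0.05 the count was again 0, against 5.85% of all tested genes (3.14% higher and 2.71% lower). The smallest unadjusted p of any member was 0.155. In 0 members did the 3 BrmKO libraries all lie above the 3 WT libraries, against 5.7% of all tested genes, and in 0 did they all lie below, against 5.36% (11.1% in either direction). Without BrmKO replicate 3, 4 members (Ndufb2, Ndufb4, Cox7c and Cycs) had an unadjusted p under 0.05, all lower in BrmKO, and none of them passed after adjustment.

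The members were measured with narrow error. The 95% interval of the fold change lay within 1.5-fold either way of no change for 76 of 80 members, against 54.7% of all tested genes and 81.6% of tested genes at 5 CPM or more. It lay within 2-fold for all 80, against 69.6% of all tested genes. Ndufb2 and Ndufb4 of complex I and Cox6a2 and Cox7b of complex IV were the 4 whose interval reached past 1.5-fold. The median log2 fold change of the 80 members was -0.04, beside -0.01 over all tested genes. By direction, 24 members lay above 0 and 56 below, where 48.8% of all tested genes lay above and 51.2% below. Chromosome 19, where Smarca2 lies, holds 4 members (Cox8a, Ndufb8, Ndufs8 and Ndufv1), whose log2 fold changes ran from -0.01 to 0.10. The split by direction rested on single libraries. The number above 0 was 60 without WT replicate 3, 50 without BrmKO replicate 1, 20 without BrmKO replicate 3 and 13 without WT replicate 2.

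Summed over the 80 members, the subunits took 1.31% of reads in both genotypes, 13112 ± 865 CPM in WT and 13092 ± 351 CPM in BrmKO. The sum was 13294, 12171 and 13873 CPM in WT replicates 1 to 3 and 12689.8, 13248 and 13339 CPM in BrmKO replicates 1 to 3, so the groups overlapped throughout. Complex V accounted for the largest part of it, 5161 ± 213 CPM in WT and 5202 ± 196 CPM in BrmKO. Since the RNA is from bulk cells, fewer cells of a type and less RNA per cell cannot be told apart in any of these values.

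**Figure D1:**
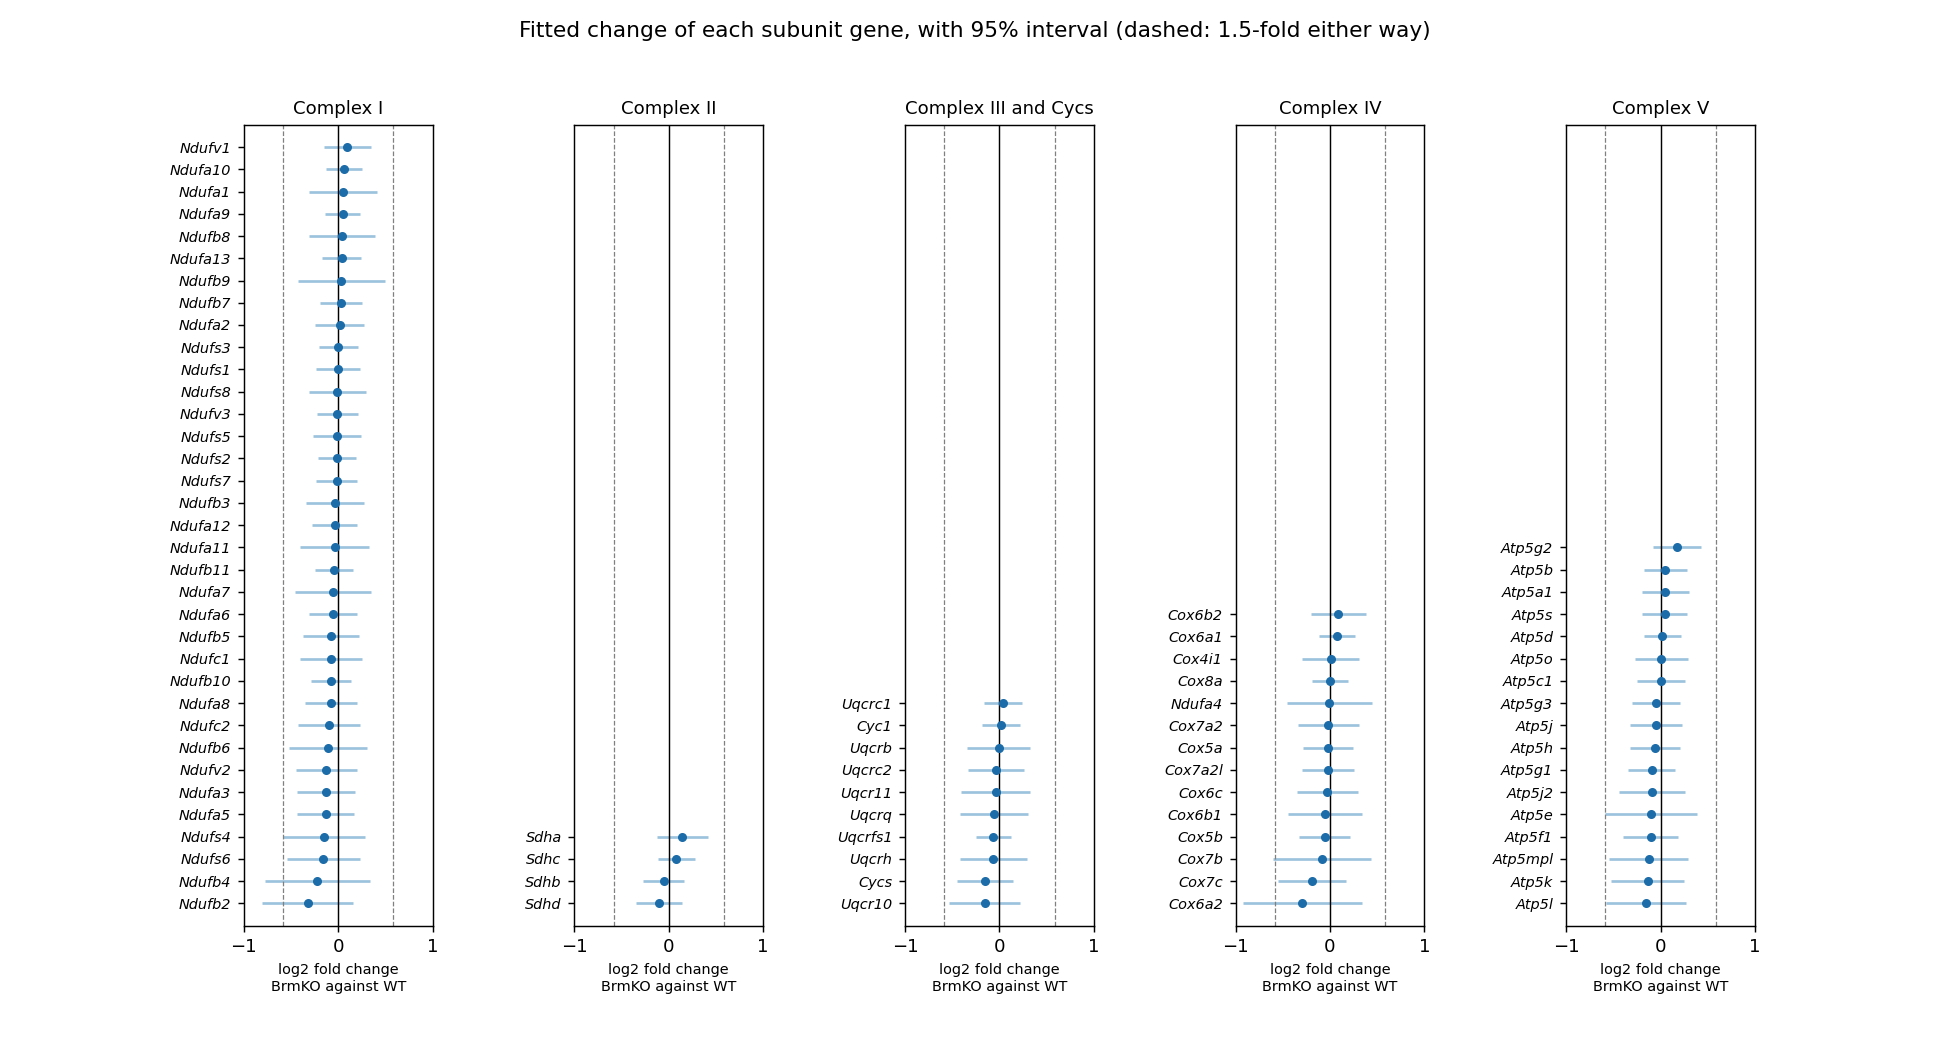
The plot gives the log2 fold change of each subunit gene, BrmKO against WT, on the horizontal axis, with points for the fitted value and bars for its 95% interval, by complex and from highest to lowest. Dashed lines mark 1.5-fold either way, and every bar crosses 0, with 4 bars reaching past a dashed line.

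Complex I is the NADH dehydrogenase, whose 7 nuclear core subunits carry the flavin and the iron-sulphur clusters and whose accessory subunits surround and stabilise them. The median log2 fold change of its 35 genes was -0.04, with -0.01 in the 7 core genes and -0.05 in the 28 accessory genes. Ndufb8 (chr19:44548572-44555440, GRCm38), an accessory subunit of the membrane arm often used to follow assembled complex I, stood at 67.8, 58.3 and 87.4 CPM in WT and 69.9, 65.0 and 84.3 CPM in BrmKO. Its highest library was replicate 3 in either genotype and the groups overlapped fully (log2 fold change 0.04 ± 0.16 SE). Ndufb2, a small accessory subunit, had the smallest p of the complex, with 12.3, 12.8 and 17.7 CPM in WT against 10.8, 9.12 and 14.2 CPM in BrmKO. BrmKO replicate 3 lay above WT replicates 1 and 2, and the difference of -0.32 ± 0.22 did not pass (unadjusted p = 0.165 and adjusted p = 0.981 in edgeR). The accessory genes Ndufa5 and Ndufa3 followed, each at -0.13 (± 0.13 and ± 0.14). Among the core genes, Ndufv1, whose product holds the flavin and binds NADH, read 203, 208 and 188 CPM in WT and 228, 232 and 181 CPM in BrmKO. BrmKO replicate 3 was its lowest library, below every WT library, and the difference was 0.10 ± 0.11.

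Complex II, succinate dehydrogenase, is shared with the tricarboxylic acid cycle and is encoded wholly in the nucleus. Its 4 genes summed to 1257 ± 25.8 CPM in WT and 1298 ± 84.5 CPM in BrmKO, with a median log2 fold change of 0.01. Sdha (chr13:74322254-74350280), the flavoprotein that oxidises succinate, read 669, 674 and 552 CPM in WT and 753, 741 and 597 CPM in BrmKO. In each genotype replicate 3 was the lowest, and BrmKO replicate 3 lay below WT replicates 1 and 2. Its log2 fold change was 0.14 ± 0.12 with an unadjusted p of 0.265 (edgeR, adjusted p = 0.999). Without both libraries numbered 3 the difference was 0.15 with an unadjusted p of 0.0269 and an adjusted p of 0.414. Sdhb, the iron-sulphur subunit, stood at 233 ± 23.2 and 225 ± 9.17 CPM (log2 fold change -0.05 ± 0.10). Of the membrane anchors, Sdhc differed by 0.08 ± 0.09 and Sdhd by -0.11 ± 0.11.

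Complex III, the cytochrome bc1 complex, consists of core proteins, the electron carriers cytochrome c1 and the Rieske protein, and small subunits. The median log2 fold change was -0.04 over its 9 genes, -0.01 in the 4 genes for core proteins and carriers and -0.06 in the 5 small subunits. Uqcrc1 (chr9:108936633-108949623), a core protein, read 672, 607 and 635 CPM in WT and 670.0, 688 and 602 CPM in BrmKO, a difference of 0.03 ± 0.09. Uqcr10, a small subunit, had the smallest p of the complex (unadjusted 0.377 in edgeR) and read 81.4, 72.9 and 106 CPM in WT and 67.2, 71.3 and 95.3 CPM in BrmKO. Its 2 lowest libraries were BrmKO replicates 1 and 2, while BrmKO replicate 3 lay above WT replicates 1 and 2. Uqcrfs1, the Rieske protein, differed by -0.06 ± 0.08 and Uqcrh, the hinge protein, by -0.07 ± 0.16. Cycs, the soluble carrier, read 118, 108 and 131 CPM in WT and 91.3, 101 and 128 CPM in BrmKO. BrmKO replicates 1 and 2 lay below every WT library and replicate 3 among them, and the difference was -0.15 ± 0.13 (unadjusted p = 0.278 in edgeR).

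Complex IV, cytochrome c oxidase, has its catalytic centre in mitochondrially encoded subunits, around which the nuclear subunits sit. The 14 genes summed to 1778 ± 276 CPM in WT and 1752 ± 253 CPM in BrmKO, with a median log2 fold change of -0.02. Cox4i1 (chr8:120668222-120674207), the common isoform of subunit 4, read 257, 219.6 and 304 CPM in WT and 238, 245 and 301 CPM in BrmKO, a difference of 0.01 ± 0.14. Cox7c had the smallest p of the complex and read 84.2, 69.9 and 92.8 CPM in WT against 60.7, 65.3 and 90.0 CPM in BrmKO. BrmKO replicates 1 and 2 were its lowest libraries, and BrmKO replicate 3 was above WT replicates 1 and 2 (log2 fold change -0.19 ± 0.16, edgeR unadjusted p = 0.261). Without both libraries numbered 3 the difference for Cox7c was -0.29 (unadjusted p = 0.0368, adjusted p = 0.458). Cox6a2, the heart and muscle isoform of subunit 6A, read 9.10, 4.30 and 6.29 CPM in WT and 5.11, 5.33 and 5.64 CPM in BrmKO. WT replicate 1 alone was high, and the interval of the difference was the widest of any member (-0.92 to 0.33 on the log2 scale).

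Complex V consists of F1, where ATP is made, and the membrane part through which protons pass, joined by stalks. The median log2 fold change was -0.05 over its 17 genes, 0.02 over the 5 genes of F1 and -0.08 over the other 12. The genes of F1 are Atp5a1, Atp5b, Atp5c1, Atp5d and Atp5e. Atp5b (chr10:128083273-128090391), the catalytic beta subunit, had the most reads of any member, at 2005, 1918 and 1781 CPM in WT and 2038, 2123 and 1745 CPM in BrmKO. Replicate 3 was lowest in both genotypes, and the difference was 0.05 ± 0.10. Subunit c, which forms the turning ring, is encoded by Atp5g1, Atp5g2 and Atp5g3, whose mature products are identical. Atp5g2 had the smallest p of all 80 members, reading 41.2, 37.9 and 35.7 CPM in WT and 42.3, 47.6 and 39.6 CPM in BrmKO. BrmKO replicate 3 lay below WT replicate 1, and the difference of 0.17 ± 0.11 had an unadjusted p of 0.155 and an adjusted p of 0.973 (edgeR). Atp5g1, at 202 ± 22.9 and 189.6 ± 17.5 CPM, differed by -0.09 ± 0.11, and Atp5g3, at 238 ± 26.8 and 230.4 ± 23.7 CPM, by -0.05 ± 0.11. Atp5l, subunit g, differed by -0.15 ± 0.19 and had the fewest reads of the complex.

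The levels of the subunits were set side by side per kb of merged exons, since CPM alone favours long transcripts. The median level in WT was 51.1 CPM per kb in complex I, 129 in complex II, 121 in complex III, 89.6 in complex IV and 47.4 in complex V. Per kb of the principal transcript the medians were 78.4, 211, 199, 149.9 and 183, so that complex V, lowest by merged exons, stood above complexes I and IV by that length. Atp5b and Atp5a1, which form the F1 head together, stood above all other members at 449 ± 26.7 and 386 ± 34.2 CPM per kb. They also ranked first and second per kb of the principal transcript. Sdhd (244 ± 31.1) and Sdhc (28.3 ± 0.998) were the highest and lowest genes of complex II with either length. In complex I the levels ran from 2.53 to 172 CPM per kb, in complex III from 69.0 to 208 and in complex IV from 9.65 to 283.

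Some positions depended on the length used. Ndufa1 was highest in complex I per kb of merged exons (172 ± 35), but the core gene Ndufs7 was highest per kb of principal transcript (226 ± 24.9). Uqcr11 was highest in complex III by merged exons (208 ± 43.7) and Uqcrq lowest (69.0 ± 11.6), while by principal transcript Uqcrc1 was first and Uqcrq second (386 ± 19.6 and 312 ± 52.6). Cox6b1 led complex IV by merged exons (283 ± 63.2) and Ndufa4 by principal transcript (462 ± 104), with SDs that overlap those of the genes next to them. Ndufb2 (2.53 ± 0.532) and Atp5l (1.61 ± 0.292) were at the bottom of complexes I and V by merged exons. Their merged exons span 5628 and 6443 bases, against 455 and 544 bases in the principal transcript, and by that length Ndufb2 stood at 31.3 ± 6.59 CPM per kb and Ndufb4 took the lowest place in complex I. Atp5l was lowest in complex V with either length (19.1 ± 3.46 CPM per kb of principal transcript).

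**Figure D2:**
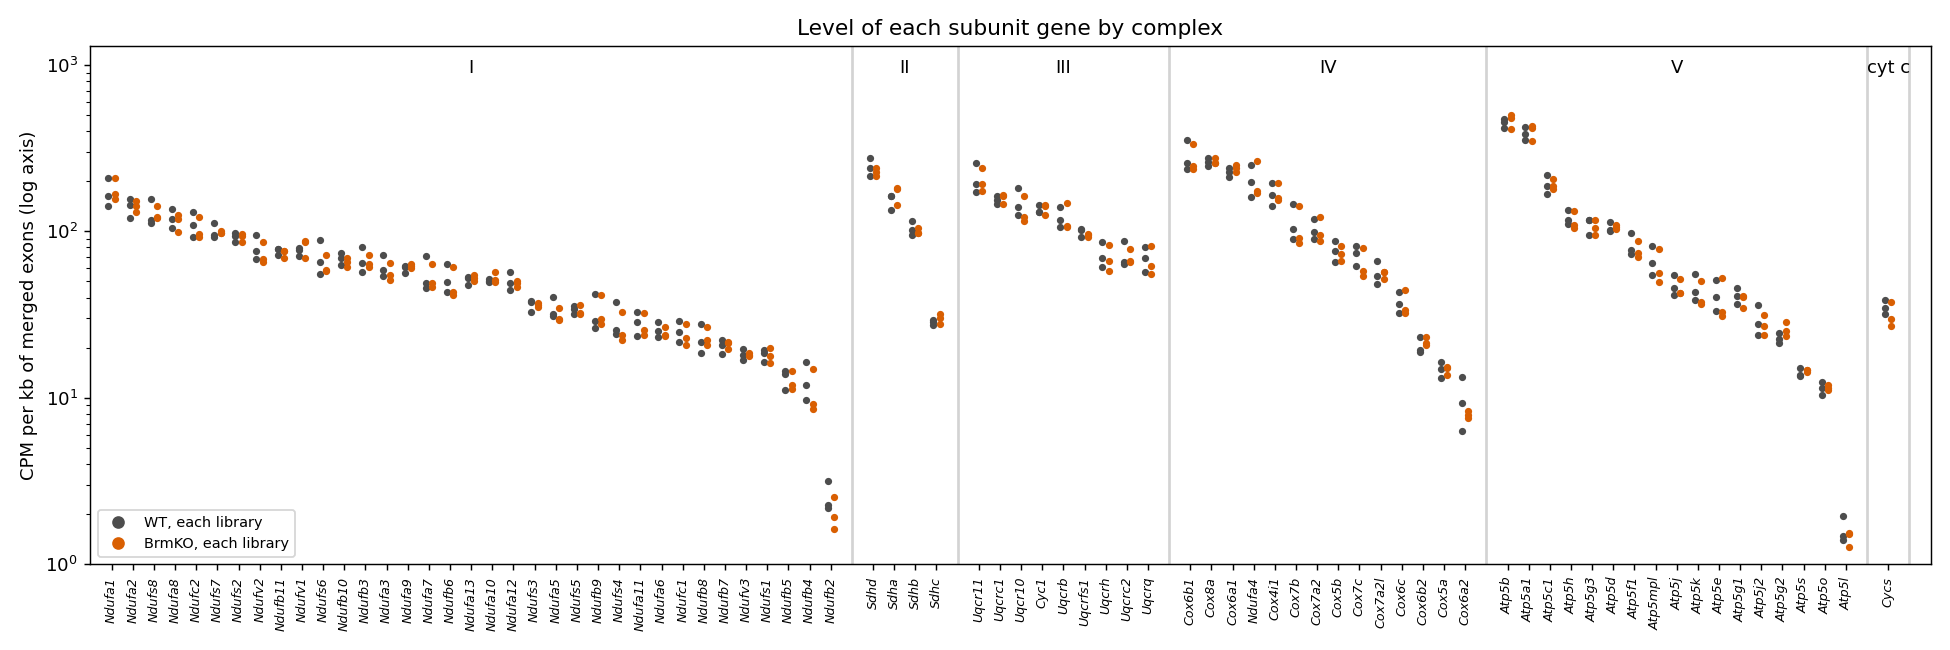
The plot gives the level of each subunit gene in CPM per kb of merged exons on a log axis, with a point for each library (WT grey, BrmKO orange), by complex and in the order of the WT mean. The points of the 2 genotypes overlap in every gene, and Atp5b and Atp5a1 stand highest.

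Several complex IV subunits come in isoforms, of which a common one serves most tissues and another is largely restricted to heart and muscle, lung or testis. In the LSK cells the common isoform was the higher one in each pair on either length. Cox6a1 stood at 227 ± 13 CPM per kb in WT beside 9.65 ± 3.55 for Cox6a2, and Cox6b1 at 283 ± 63.2 beside 20.4 ± 2.36 for the testis isoform Cox6b2. Cox7a2 stood at 103 ± 14.8 and its relative Cox7a2l at 56.4 ± 9.43 CPM per kb. The heart and muscle isoform Cox7a1 had 26 reads over the WT libraries and 32 over the BrmKO libraries. Cox4i2, the lung isoform, stood at 1.23 ± 0.217 CPM per kb in WT beside 168 ± 27.2 for Cox4i1. It was the gene just under the minimum of 5 CPM for a member, with a mean of 0.878 CPM over the 6 libraries before TMM scaling, and Cox6a2 (5.97 CPM) and Atp5l (9.87 CPM) were just above. Ndufa4l2, a relative of Ndufa4 known to respond to hypoxia, had 4 reads in WT and 0 in BrmKO. The restricted isoforms Cox7b2, Cox8b and Cox8c had 0 reads in any library, which with 3 reads as the limit allows up to 0.0828 to 0.105 CPM per library. Cox8a, the common form of subunit 8, averaged 162 ± 8.95 CPM in WT against 163 ± 6.04 CPM in BrmKO. Another gene identifier with the symbol Atp5o also had 0 reads. With Cox4i2, Cox7a1 and Ndufa4l2 these make the 7 genes left out. Of the isoforms that could be tested, Cox6b2 differed between the genotypes by 0.09 ± 0.13, Cox4i2 by -0.30 ± 0.43 and Cox7a1 by 0.34 ± 0.57 on the log2 scale.

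Many subunits varied between replicates in the same way in both genotypes. In 50 of 80 members replicate 3 was the highest library of its genotype in WT and in BrmKO, against 23.3% of all tested genes, and in 8 members it was the lowest in both, against 22% of all tested genes. The median log2 ratio of replicate 3 to the mean of replicates 1 and 2 was 0.28 in WT and 0.22 in BrmKO over the members, and 0.00 in both over all tested genes. In 73 of 80 members the ratio had the same sign in the 2 genotypes. Ndufa4 was one of the members highest in replicate 3, at 275, 222 and 348 CPM in WT and 234, 242 and 365 CPM in BrmKO. Cox7b showed the same order, at 126, 109 and 176 CPM in WT and 103, 111 and 173 CPM in BrmKO, and so did Ndufs4, an accessory subunit of complex I, at 69.3, 65.5 and 102 against 60.3, 64.2 and 88.7 CPM. Atp5a1 went the other way, at 1319, 1204 and 1105 CPM in WT and 1304, 1355 and 1094 CPM in BrmKO, as did Sdha, Atp5b and Ndufs1. These 5 genes, Ndufa4, Cox7b, Ndufs4, Atp5a1 and Ndufs1, were chosen as examples after their values were seen.

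**Figure D3:**
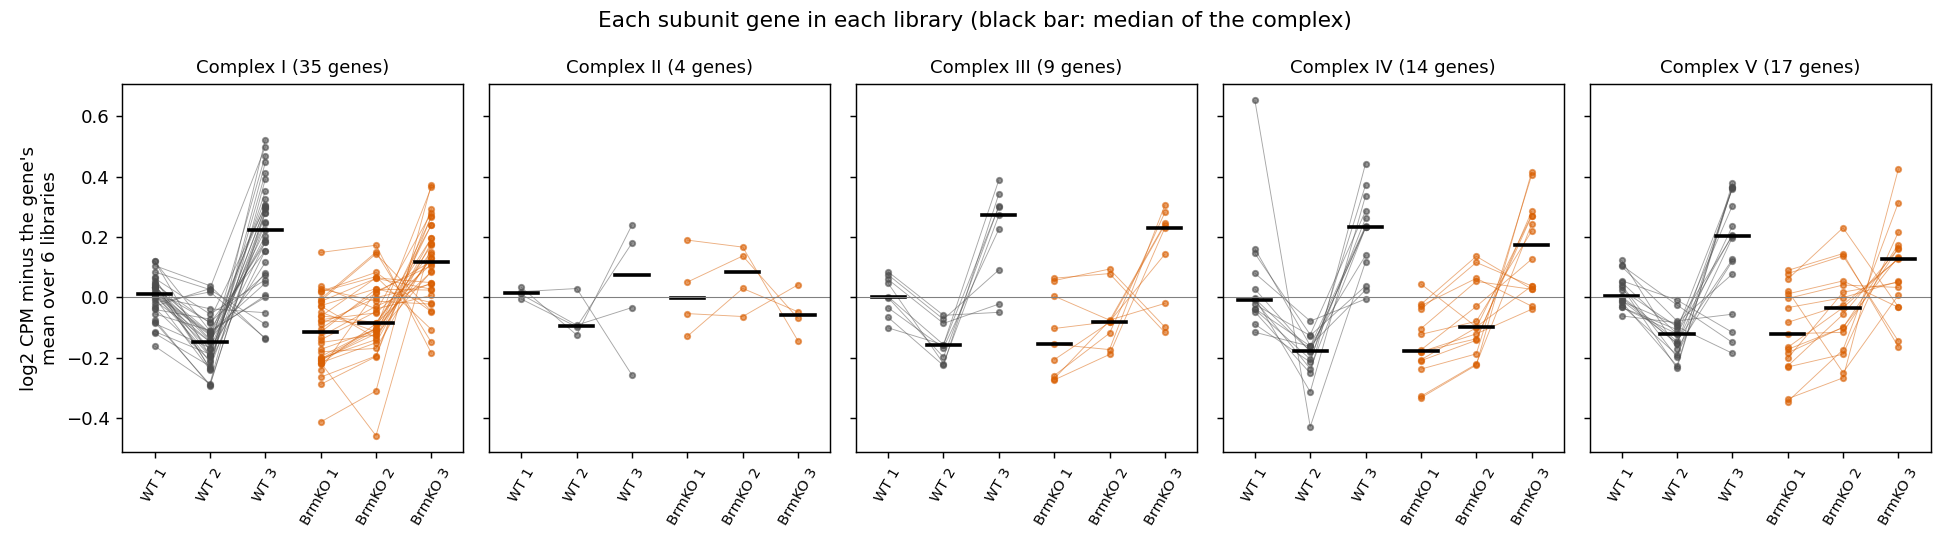
The plot gives log2 CPM of each subunit gene minus its mean over the 6 libraries, by library and complex, with a line for each gene within a genotype and a black bar for the median of the complex. In complexes I, III, IV and V the bar is highest in replicate 3 of each genotype, while in complex II it is highest in replicate 3 for WT only.

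The subunits that were high in the libraries numbered 3 were mostly those with short transcripts. The principal transcripts of the members had a median length of 786 bases, against 2539 bases over all tested genes. Among the 50 members under 1000 bases the median ratio of replicate 3 was 0.34 in WT and 0.31 in BrmKO, and replicate 3 was highest in both genotypes in 38 of them. Among the 30 members of 1000 bases or more the medians were 0.14 and 0.01, with 12 highest and 7 lowest in both. Across the 80 genes, which share the same 6 libraries, Spearman's rho between length and the ratio was -0.44 in WT and -0.52 in BrmKO. All tested genes followed the same order, with medians of 0.20 and 0.23 for those under 1000 bases and -0.08 and -0.07 for those in the longest class plotted.

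Median ratios also differed between subunit roles, which were not separated from transcript length. The 7 core genes of complex I had median ratios of 0.12 in WT and -0.02 in BrmKO, and the 28 accessory genes 0.33 and 0.26. Among the 7 core genes replicate 3 was highest in both genotypes in 2 and lowest in both in 3. The 4 genes for core proteins and carriers of complex III stood at 0.04 and -0.08, and the 5 small subunits at 0.40 and 0.46. The 5 genes of F1 stood at -0.07 in both, with replicate 3 highest in both genotypes in 2 and lowest in both in 2. The mitochondrially encoded subunits moved with the libraries too, at 6203 and 6078 CPM in WT and BrmKO replicates 3 against 3529 to 4275 CPM in the other 4. Neutrophil markers (S100a8, S100a9 and Camp among them) summed to 22.6 and 16.9 CPM in the replicates numbered 3 and to 4.12 to 7.20 CPM elsewhere. Erythroid markers had a median log2 deviation from their 6-library means of 0.78 and 0.28 in the replicates numbered 3 and of -0.49 to -0.07 elsewhere. Their sums were 211 and 182 CPM in the replicates numbered 3 and 117 to 175 CPM elsewhere. Klf1 (96.4 CPM) and Epor (48.2 CPM) were highest in BrmKO replicate 2. The part of transcript length, of reads outside genes or of such cells in this pattern was not tested.

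**Figure D4:**
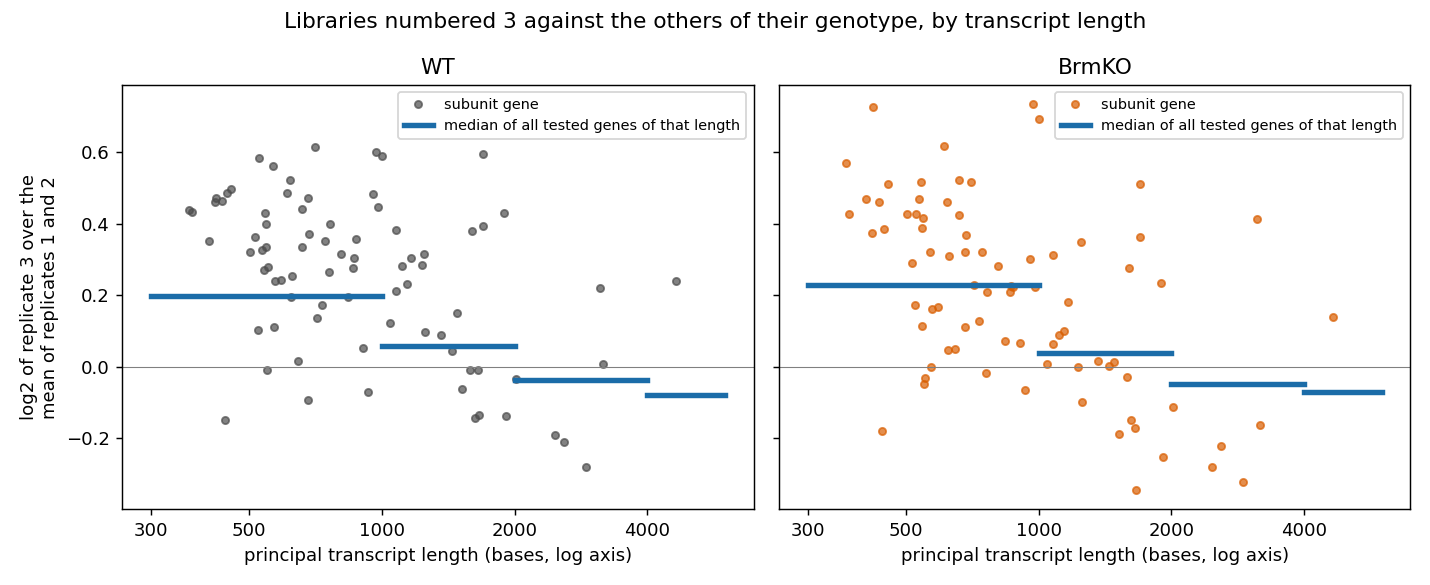
The plot gives, for each subunit gene, the log2 ratio of CPM in replicate 3 to the mean of replicates 1 and 2 against the length of the principal transcript in bases on a log axis, in WT and in BrmKO. Blue bars are medians of all tested genes of that length. The points under 1000 bases lie mostly above 0, with medians of 0.34 in WT and 0.31 in BrmKO. Those of 1000 bases or more lie on both sides of 0, with medians of 0.14 in WT and 0.01 in BrmKO. Spearman's rho is -0.44 in WT and -0.52 in BrmKO.

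The counts of some subunits are uncertain because other genes resemble or overlap them. A near-identical copy elsewhere in the genome (95% identity or more over at least 50% of the principal transcript) was found for 11 members. A group of 11, with Ndufb11 and Atp5o again among them, shared more than 10% of their exon bases with a neighbouring gene, and 60 members had neither. The median log2 fold change of those 60 was -0.04, as for all members. A copy held more than 10% of the reads of its pair in either group only for Atp5o, which encodes the stalk subunit OSCP. Its processed pseudogene Gm5436 (chr12:84258331-84258973, GRCm38), 97.0% identical over 76.7% of the transcript, had 19, 9 and 26 reads in WT and 68, 74 and 177 reads in BrmKO. Every BrmKO library was above every WT library, and Gm5436 held 2.42% of the pair's reads in WT and 13.1% in BrmKO. The difference did not pass (log2 fold change 2.55, edgeR unadjusted p = 0.000697, adjusted p = 0.185). Atp5o itself stood at 22.5 ± 2.10 and 22.6 ± 0.692 CPM, a log2 fold change of 0.01 ± 0.12, and of 0.17 ± 0.13 when its reads were summed with those of the copy (unadjusted p = 0.226). Atp5o also shared 47.9% of its exon bases with other genes, and the library kit does not mark strand, so reads of overlapping genes cannot be told apart there.

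Promoters of these genes are known for sites of a few shared regulators, nuclear respiratory factor 1 (NRF1), the ETS factor GABP, YY1 and SP1, so the RefSeq promoter windows (250 bases before to 50 after the start, GRCm38.p6) were searched on both strands for their letters. A window was found for 65 of the 80 members, 70 windows in all. The NRF1 motif, whose letters read the same on both strands and stand in capitals in the lines that follow, was in the windows of 5 members, Atp5g2, Atp5k, Cox6a1, Ndufa11 and Uqcrc1. That is 7.14% of the member windows, against 0.971% of all 32851 windows and 1.33% of those of protein-coding genes. The stretches that lie before the start are shown because they hold the rarest of the motifs searched. They lie on GRCm38 at chr15:102671070-102671099 (minus strand, in an exon of a longer Atp5g2 transcript), chr5:108434430-108434459 (minus, across the upstream end of Atp5k's first exon), chr5:115349101-115349130 (minus, upstream of Cox6a1 and touching an exon of Gm42903) and chr17:56717692-56717721 (plus, upstream of Ndufa11, within Vmac but in none of its exons).
Atp5g2: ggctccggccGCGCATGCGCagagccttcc
Atp5k: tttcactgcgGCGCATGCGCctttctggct
Cox6a1: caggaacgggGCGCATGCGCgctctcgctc
Ndufa11: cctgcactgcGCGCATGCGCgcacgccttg

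The ETS letters CCGGAAG were in the windows of 16 members, or 22.9% of the member windows, against 8.86% of all windows and 11.6% of those of protein-coding genes. Atp5k and Cox6a1 held both the NRF1 and the ETS letters. The 4 stretches shown come from complexes II, III and IV, since the NRF1 matches shown lay mostly in complexes I and V. They lie at chr9:50603876-50603905 (minus, upstream of Sdhd), chr10:80406868-80406897 (minus, upstream of Uqcr11), chr4:116075071-116075100 (minus, at the start of Uqcrh) and chr7:30626123-30626152 (minus, overlapping the first exon of Cox6b1 in GENCODE). CTTCCGG is the same motif read on the other strand, and capitals mark the match.
Sdhd: cgtctcctgcCTTCCGGttcacgcttcagg
Uqcr11: tctctcctccCCGGAAGtagatgtcaatgt
Uqcrh: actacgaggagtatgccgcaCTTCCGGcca
Cox6b1: cctctcgcagCTTCCGGccagtcggaattc

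The YY1 letters AAGATGGC were in the windows of 10 members, or 14.3% of the member windows, against 2.75% of all windows and 3.05% of those of protein-coding genes. Of the 10 matches, 8 lay after the start. The letters hold the start codon ATG, so a match there can also be the beginning of the coding sequence. The 3 complex I examples shown lie in exons of their genes at chr19:44555393-44555410 (Ndufb8, minus), chr10:80249467-80249486 (Ndufs7, plus) and chr6:126849102-126849121 (Ndufa9, minus), 39, 25 and 30 bases after the start.
Ndufb8: aaggtgAAGATGGCtgcc
Ndufs7: gaggccAAGATGGCggcgct
Ndufa9: tgggagAAGATGGCggccgc

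The SP1 letters GGGCGG were in 27 members and 40.0% of the member windows, against 35.7% of all windows and 46.2% of those of protein-coding genes. For the other motifs, the median log2 fold change was 0.03 with the NRF1 letters and -0.05 without, -0.05 with the ETS letters and -0.04 without, and -0.08 with the YY1 letters and -0.04 without. A match is a run of letters and not a measured binding site.

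The regulators' own genes were measured in the same libraries, from a list of 14 of which all were tested and 0 passed in either direction (median log2 fold change -0.01). Nrf1 averaged 163 and 168 CPM in WT and BrmKO (0.04 ± 0.09), Gabpa differed by -0.03 ± 0.12, Gabpb2, a beta subunit of GABP, by -0.13 ± 0.12 and Tfam, the mitochondrial transcription factor, by -0.07 ± 0.13. Among the coactivators of the PGC-1 family, Pprc1 differed by 0.01 ± 0.11, while the other members had the smallest p of the list. Ppargc1b averaged 22.3 ± 1.34 CPM in WT against 17.1 ± 2.26 CPM in BrmKO (log2 fold change -0.38 ± 0.14, edgeR adjusted p = 0.748), and Ppargc1a at 1.14 ± 0.531 and 2.39 ± 0.850 CPM (1.07 ± 0.46, adjusted p = 0.828). They were the only 2 of the list of 14 with an unadjusted edgeR p under 0.05, against 5.85% of all tested genes. They lay on opposite sides of 0, and Ppargc1a rested on few reads (107 in WT and 227 in BrmKO).

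Proteins that build the complexes without staying in them were described as well. Of 52 genes for assembly factors 50 were tested and 0 passed, 0 had an unadjusted p under 0.05, and the median log2 fold change was -0.05. The smallest p belonged to Higd1a, a factor of complex IV and its supercomplexes (-0.27 ± 0.14), followed by Ndufaf2, an assembly factor of complex I (-0.28 ± 0.20), and Atpaf2, a chaperone of the F1 head (0.14 ± 0.10). The 13 enzymes of the tricarboxylic acid cycle, which feed the chain, likewise gave 0 that passed and 0 with an unadjusted p under 0.05, with a median of -0.01. Fh1 (fumarase) differed by -0.18 ± 0.11 and Idh3g, a subunit of isocitrate dehydrogenase, by 0.10 ± 0.08. Of the 13 mitochondrially encoded subunits 10 were tested, of which 8 lay below 0 and 1 passed, mt-Nd3, with 252 reads in WT and 1 in BrmKO (edgeR adjusted p = 0.00614). With any 1 library left out mt-Nd3 still passed (edgeR adjusted p = 0.0207 to 0.0486). Its counts can be uncertain, since the nuclear genome holds near-identical copies of stretches of mitochondrial DNA. These copies were not searched for, and their part in the difference was not tested. The next by p, mt-Nd2 and mt-Nd6, differed by -0.33 ± 0.20 and -0.19 ± 0.20.

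Markers of other cells that a sorted marrow sample may hold were counted in the same libraries. Of 7 tested megakaryocyte and platelet genes all lay below 0, summing to 697 to 914 CPM in WT and 458 to 649 CPM in BrmKO. Pf4, a platelet chemokine, fell from 159 ± 10.6 to 105 ± 3.13 CPM (edgeR adjusted p = 0.0391, and 0.0564 to 0.291 with any 1 library left out), Treml1 differed by -0.81 ± 0.17 and Itgb3 by -0.71 ± 0.18, and no other marker of any list passed. Stromal genes summed to 16.0 to 139 CPM in WT and 3.97 to 77.6 CPM in BrmKO. Of them, Pdgfra (67 reads in WT and 0 in BrmKO), Lepr and Cxcl12 lay below 0, and Col1a1 lay above it with 1038 reads in WT and 2593 in BrmKO, of which BrmKO replicate 3 had the most (58.0 of its 77.6 CPM). Endothelial genes (Kdr, Plvap and Cdh5 among them) summed to 40.5 to 81.1 CPM in WT and 21.9 to 31.3 CPM in BrmKO. Monocyte and macrophage genes (Ccr2, Csf1r and Ly6c2 among them) summed to 267 to 325 CPM and 231 to 273 CPM. Of these 6 genes 5 lay below 0 and Cd68 lay above it (24.4 CPM in WT and 25.7 CPM in BrmKO). Erythroid genes (Klf1 and Epor among them) summed to between 117 and 211 CPM in all libraries and B cell genes to between 55.1 and 76.2 CPM. Most of the B cell sum was Cd79b (60.2 CPM in WT and 57.2 CPM in BrmKO). All 3 tested B cell genes lay below 0, with a median log2 fold change of -0.74. T and NK cell genes summed to 5.71 to 6.22 CPM in WT and 7.42 to 9.85 CPM in BrmKO, so the groups did not overlap. Most of the sum was Cd4 (3.95 CPM in WT and 5.09 CPM in BrmKO). Of the 4 tested genes, Ncr1, Cd8a and Cd4 lay above 0. The NK cell gene Klrb1c lay below it, with 131 reads in WT and 105 in BrmKO. Cd3g, not tested, had 15 reads in WT and 7 in BrmKO, and Cd3e had 0 in every library. Ncr1, an NK cell receptor, had 21 reads in WT and 97 in BrmKO (log2 fold change 2.22 ± 0.55, edgeR adjusted p = 0.327). Their part in the values of the subunits was not tested.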

How the data were processed

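RNA of sorted LSK cells was measured in 6 libraries (3 WT, 3 BrmKO), made from polyadenylated RNA with the SMART-Seq v4 low-input kit, per the labels' protocols. The authors deposited raw read counts per Ensembl gene, 1 file per library, with no normalization. The submitters' processing notes name bcl2fastq, FastQC, STAR, HTSeq, DESeq2 and the build GRCm38; the sources used here do not give versions, the strand setting or the annotation release. The 5 rows that name no gene were left out of library sizes (5.79% to 9.29% of reads lay outside genes, 6.23% to 6.47% were ambiguous, 4.38% to 5.27% not unique, 1.99% to 2.48% not aligned and 0.00292% to 0.00368% of low alignment quality).

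Counts were tested with edgeR 4.0.16 (R 4.3.3; TMM factors, filterByExpr, robust quasi-likelihood fit), BrmKO against WT with no covariate. P-values were adjusted by Benjamini-Hochberg over the 15691 genes tested, with a threshold of 0.05. SE is the size of the log2 fold change over the square root of F, and 95% intervals use the total degrees of freedom. The procedure was tested on simulated data. DESeq2 1.42.0, limma 3.58.1 (voom), other scalings, no filter, libraries left out and a replicate block were alternatives. Copies were searched with minimap2 2.31. Principal transcripts came from GENCODE M21, and promoter windows from RefSeq.

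The members, lists, tests and naming rule were chosen with earlier results of these data known. Named were the 5 marker genes (Ndufb8, Sdha, Uqcrc1, Cox4i1 and Atp5b), members with the smallest p of each complex, all of complex II, Cycs, the highest and lowest level per complex, those at the level limit, isoform pairs and the Atp5g genes, members whose copy held over 10% of the pair's reads, and the 3 genes with the smallest p of each other list. Other names were chosen after their values were seen, and the own results of a few list genes are not reported here. The design gives each library as a separate mouse, and no pair of libraries was alike within sampling noise. Intervals and floors cover counting error only where they rest on reads, since the kit has no molecular identifiers.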

Additional observations from a re-analysis of the deposited data

How the results depend on the processing

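Under all 16 alternatives 0 subunits passed the threshold, and the smallest adjusted p of a subunit under any of the 14 that refitted the genes was 0.414. Over those 14, the values of single subunits ran from -0.52 to 0.26 on the log2 scale, and 63 of the 80 subunits changed sign at least once. At an unadjusted edgeR p under 0.05, the count of subunits higher in BrmKO was 2 without both libraries numbered 3 (Ndufv1 and Sdha), 1 with the replicate block (Sdha, edgeR adjusted p = 0.440) and 0 with any 1 library left out. The count lower in BrmKO was 2 without both libraries numbered 3 (Cox7c and Cycs), and ranged from 0 to 4 with 1 library left out. The cause was not tested. The median log2 fold change crossed 0 with 1 library left out in complex I (-0.11 to 0.05), II (-0.03 to 0.04), III (-0.18 to 0.07), IV (-0.16 to 0.11) and V (-0.14 to 0.03), and stayed below it for Cycs (-0.31 to -0.05). Under the other alternatives these medians stayed on their side of 0. Smarca2 stayed lower in all 14 (-2.85 to -2.58, largest adjusted p = 0.00147). Over all genes, 22 passed in edgeR, 141 in DESeq2, 58 without the low-count filter, 25 with the block and 6 to 36 with 1 library left out. Same-numbered libraries deviated together with r of 0.05, 0.01 and 0.19, and WT replicate 2 correlated best with BrmKO replicate 1 (0.17), so the numbers were not taken as pairs. With 3 mice a group, differences within the intervals given could not be detected.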
